A study of Drosophila melanogaster with 3 samples.

Results

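The regions described here are the TSS-near intronic peaks of a ChIP-seq experiment on the nuclear receptor Hr51 in Drosophila melanogaster. A peak was included when its summit lay inside an annotated gene but in none of its exons, and 501 to 2000 bp from the nearest annotated transcription start site (TSS) of any gene other than a transposable element. These criteria use position only. They selected 436 of the 3496 peaks that passed a filter on the irreproducible discovery rate (IDR), 12.5% of that list. The embryos were 0 to 24 h old, of both sexes, and came from a transgenic line that made Hr51 fused at its C-terminus to eGFP. Chromatin was sheared by sonication to 200 to 800 bp, and the fusion was precipitated with an antibody against GFP according to the description in the labels, although another field of the labels names the antibody as Hr51. The 3 samples are biological replicates of 1 group, and no untagged or input library was among them. Whole embryos mix all cell types and a day of development, so a stronger peak from more cells and one from more binding per cell cannot be told apart.

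Hr51, also called unfulfilled, is an orphan nuclear receptor of the NR2E group, whose members bind DNA through a zinc-finger domain. It is best known from the mushroom body, the fly's centre for olfactory learning, where its neurons need it to mature. Introns close to a TSS, first introns above all, are common places for enhancers and for alternative promoters in the compact fly genome.

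The 5 members of highest signal, and 3 others that hold sequences counted later, are shown as the 101 bp around the summit, on the plus strand of Release 6 of the genome (dm6) as given by RefSeq, 5′ to 3′. Each is named by the gene whose intron holds it. Windows of the top 5 are ush at chr2L:481008-481108, CG11050 at chr2L:6612671-6612771, Lk6 at chr3R:11760993-11761093, CG32772 at chrX:4910331-4910431 and CG9663 at chr2L:3302118-3302218. The others are Zw at chrX:19668562-19668662, Hgsnat at chrX:4919608-4919708 and Stt3A at chrX:21053270-21053370. Capitals mark, on either strand, the A and T rich word TTAAAA and the NR2E half-site AAGTCA. They also mark the consensus sequences of M1BP (GGTCACAC) and of DREF/BEAF (TATCGATA), as well as another 6-base word, ACAGTG, that is described with the results.
ush: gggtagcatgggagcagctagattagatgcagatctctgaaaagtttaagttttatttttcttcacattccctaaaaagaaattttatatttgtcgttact
CG11050: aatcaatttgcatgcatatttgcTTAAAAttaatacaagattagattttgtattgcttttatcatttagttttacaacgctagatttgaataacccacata
Lk6: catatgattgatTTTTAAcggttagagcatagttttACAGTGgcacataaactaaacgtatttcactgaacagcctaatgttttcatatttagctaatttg
CG32772: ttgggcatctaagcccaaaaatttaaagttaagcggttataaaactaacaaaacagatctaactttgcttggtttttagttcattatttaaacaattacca
CG9663: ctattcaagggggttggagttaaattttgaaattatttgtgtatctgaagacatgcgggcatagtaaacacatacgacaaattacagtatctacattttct
Zw: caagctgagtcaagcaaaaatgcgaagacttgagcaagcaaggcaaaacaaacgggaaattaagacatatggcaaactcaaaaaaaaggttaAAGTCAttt
Hgsnat: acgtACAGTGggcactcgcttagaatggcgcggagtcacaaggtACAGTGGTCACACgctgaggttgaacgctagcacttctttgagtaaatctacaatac
Stt3A: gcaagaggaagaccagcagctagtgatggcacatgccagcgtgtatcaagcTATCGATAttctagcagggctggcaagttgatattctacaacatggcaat
Of the top 5, CG11050 and Lk6 hold TTAAAA, which reads TTTTAA on the other strand. Lk6 also holds ACAGTG. In the Hgsnat window the second ACAGTG shares its last base with the M1BP consensus. The ush, CG32772 and CG9663 windows hold none of the capitalised words. All 5 top windows are rich in A and T, with a G+C content of 32.7% for ush, 24.8% for CG11050, 30.7% for Lk6, 28.7% for CG32772 and 33.7% for CG9663.

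The strongest members were among the strongest peaks of the experiment and were strong in every replicate. They were picked by signal in the IDR list, which these replicates went into, so high replicate ranks follow in part from that choice. Signal is the value that the authors' peak caller gave each peak. It has no common scale between lists, so it is read as a rank within a list, 1 being the highest. The peak in the first intron of ush, which encodes a zinc-finger cofactor of GATA factors, had a signal of 1679 and ranked 2 in the IDR list. Its ranks in the lists of replicates 1, 2 and 3 were 2, 3 and 1. It lay 1370 bp upstream of the TSS of the neighbouring gene cbt, a zinc-finger transcription factor gene. CG11050 held the second, with a signal of 1409, an IDR rank of 4 and replicate ranks of 4, 6 and 2. Lk6, which encodes a kinase of the translation factor eIF4E, held the third, with a signal of 1063, an IDR rank of 7 and replicate ranks of 13, 7 and 7. The peaks in CG32772 and CG9663 had IDR ranks of 10 and 13. Their replicate ranks were 15, 9 and 8 for CG32772, and 11, 14 and 17 for CG9663. All 5 were thus within the top 17 of each replicate.

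**Figure D1:**
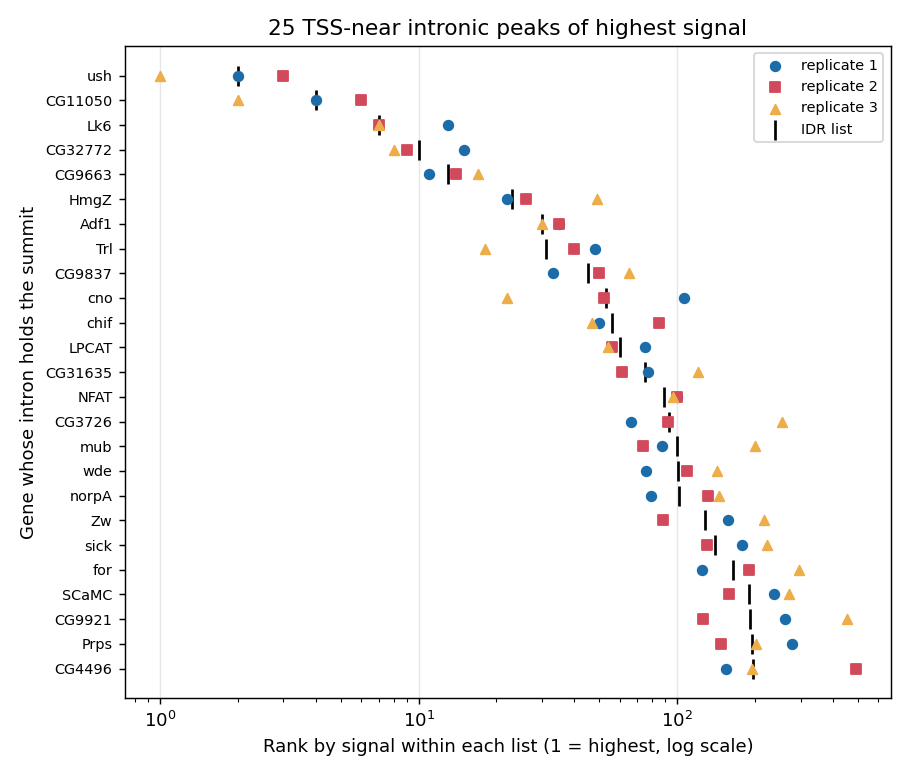
Rank by signal (horizontal log axis, 1 the highest) of the 25 TSS-near intronic peaks of highest signal, each row being a peak named by its host gene. Points are the 3 replicate lists and the vertical tick is the IDR list. The first 5 rows stay within rank 17 in every replicate, and several peaks further down, such as cno (ranks 106, 52 and 22), differ more between replicates.

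The next 20 members of highest signal lay in genes of varied known function. HmgZ, which encodes an HMG-box chromatin protein, had replicate ranks of 22, 26 and 49. Adf1, a transcription factor gene, had 35, 35 and 30. Trl, which encodes the GAGA factor, had 48, 40 and 18, and its peak lay 1541 bp upstream of a TSS that Trl shares with the overlapping gene CG42507. Other hosts were chif (an activator of the replication kinase Cdc7), NFAT (a Rel-family transcription factor) and wde (a cofactor of an H3K9 methyltransferase). The peak in wde lay 542 bp from the TSS of that gene. The peak in cno, the fly afadin of adherens junctions, had replicate ranks of 106, 52 and 22, and that in mub, a KH-domain RNA-binding protein gene, 87, 74 and 200. The peak in norpA, the phospholipase C of phototransduction, had ranks of 79, 132 and 145, and that in for, a cGMP-dependent protein kinase gene, 125, 190 and 297. The remaining hosts were CG9837, LPCAT (a lysophospholipid acyltransferase), CG31635, CG3726, Zw (glucose-6-phosphate dehydrogenase), sick, SCaMC (a mitochondrial carrier), CG9921, Prps (phosphoribosyl pyrophosphate synthetase) and CG4496. The nearest TSS was that of asRNA:CR44512 for Zw and of asRNA:CR45804 for Prps. For the other members of the 25, apart from ush, it was a TSS of the host. All 25 were found in each replicate, which follows in part from their choice by signal, and 12 were within rank 100 in all 3. The weakest replicate rank was 490, for CG4496 in replicate 2. Of the 25 summits, 22 were in a first intron, 14 were downstream of the nearest TSS, and 6 had an IDR promoter peak at that TSS.

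Across all members, recovery in the replicates was close to that of the IDR list as a whole. A peak counted as found in a replicate when a summit lay within 150 bp among that replicate's 3496 peaks of highest signal. The same replicate summit could count for neighbouring members, as for those in schlank with IDR ranks of 358 and 2435. Of the 436 members, 230 (52.8%, exact binomial 95% interval 47.9 to 57.5%) were found in all 3 replicates, against 52.6% of all IDR peaks. A further 136 were found in 2 replicates, 67 in 1 and 3 in none. The replicates held 81.7%, 81.9% and 72.5% of the members, a mean of 78.7% ± 5.36 (SD, n = 3), replicate 3 being the lowest. Over all IDR peaks the shares were 81.9%, 79.5% and 74.4%. Both replicates 1 and 2 held 308 members, replicates 1 and 3 held 259, and replicates 2 and 3 also held 259. Among all 30000 relaxed peaks of each replicate, which include background, 410 members (94.0%) had a match in every one, against 93.3% of all IDR peaks. The share found in all 3 was 47.1% for the 493 deep intronic peaks, those over 2000 bp from any TSS, with an interval of 42.6 to 51.6%. It was 52.9% for the 140 TSS-near intergenic peaks and 55.4% for the 2154 promoter peaks, those within 500 bp of a TSS. Members minus deep intronic peaks, the share found was higher by 3.36, 5.82 and 0.469 percentage points in replicates 1, 2 and 3 (exact sign-flip permutation test over the 3 replicates, two-sided p = 0.25). With 3 replicates this test cannot give a p below 0.25, so no difference between classes can pass it. Members minus TSS-near intergenic peaks, the share found differed by +5.22, −1.69 and −1.81 percentage points, with no common direction. Since these replicates went into the IDR list, high recovery in them follows in part from how the list was built.

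The members' signals covered nearly the whole range of the list. The lowest was 77.5, the median 117 and the highest 1679, with a median rank of 1770. The median rank was 1950 for deep intronic, 1880 for TSS-near intergenic and 1632.5 for promoter peaks. In the replicates' own top lists the members' median ranks were 1739, 1713 and 1649, against 1914, 1914.5 and 2049.5 for deep intronic peaks. Members therefore had the higher signal rank in 3 of 3 replicates, by 259 ± 123 ranks on average (SD, n = 3, exact sign-flip p = 0.25). Against TSS-near intergenic peaks the difference was smaller, at −3.00, −18.5 and −106.5 ranks, where a minus means a higher signal in members (exact sign-flip p = 0.25). Against promoter peaks the difference was +66.5, +82.0 and −4.00 ranks, with no common direction (exact sign-flip p = 0.50). Of the 100 peaks of highest signal, 16 were members, 3 deep intronic, 4 TSS-near intergenic and 71 at promoters. Median rank and recovery were also taken by distance, with no test. Those at 501 to 1000 bp had a median rank of 1566, those at 1001 to 1500 bp 1935 and those at 1501 to 2000 bp 1925.5. The share found in all 3 replicates was 57.5%, 50.4% and 45.6% in the same bins. Spearman correlations of relaxed rank across members were 0.716 between replicates 1 and 2 (422 peaks), 0.550 between 1 and 3 (416 peaks) and 0.501 between 2 and 3 (415 peaks). They are descriptions across peaks, which share each library, and over all IDR peaks they were 0.698, 0.552 and 0.495.

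Members were densest close to the TSS. The genome holds 11.4 Mb of intron sequence in this distance range, here called eligible sequence, and the 436 members gave 38.1 summits per Mb of it. Density was 46.9 per Mb at 501 to 1000 bp, where 207 members lay, 36.9 per Mb at 1001 to 1500 bp (139 members) and 27.7 per Mb at 1501 to 2000 bp (90 members). In the replicates' own lists it was 47.8, 49.9 and 45.6 per Mb in the nearest bin and 25.5, 25.8 and 26.1 per Mb in the farthest. The nearest bin was denser than the farthest in every replicate, by 21.9 ± 2.33 per Mb (SD, n = 3, exact sign-flip p = 0.25). Intergenic sequence at the same distance was less dense than these introns, at 18.9 per Mb in the IDR list. Members exceeded it by 19.4, 17.2 and 15.8 per Mb in the 3 replicates (exact sign-flip p = 0.25). Deep introns held 11.9 per Mb and promoters 119 per Mb.

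**Figure D2:**
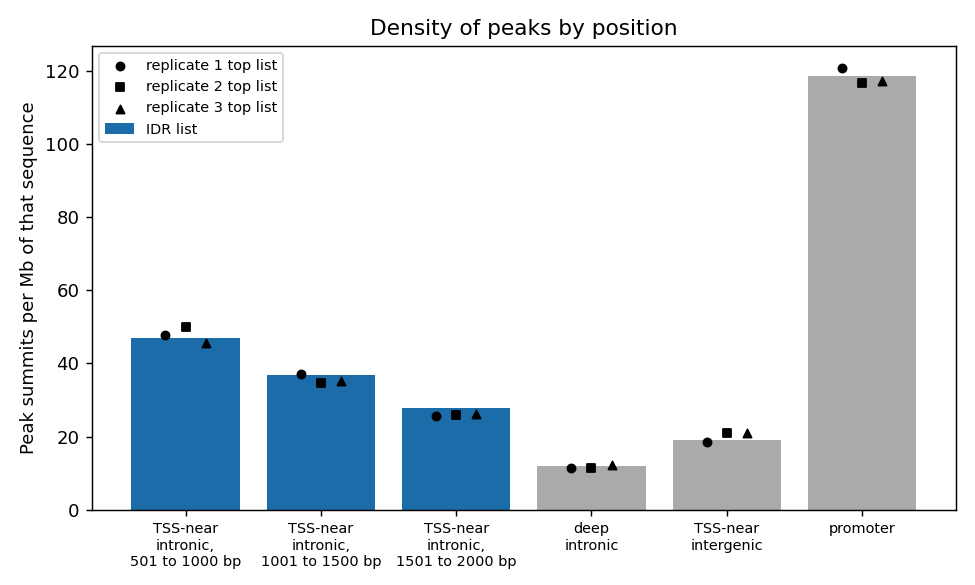
Peak summits per Mb of sequence (vertical axis) for TSS-near introns in 3 distance bins, then deep introns, TSS-near intergenic sequence and promoters. Bars are the IDR list and points the 3 replicates' own lists of 3496 peaks; the 3 bins were at 46.9, 36.9 and 27.7 per Mb, and the replicate points of different bars do not overlap.

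Most members were in first introns. Of the 436 summits, 371 (85.1%, exact 95% interval 81.4 to 88.3%) were in the first intron of at least 1 transcript, against 64.5% of eligible sequence. The share in the replicates' own lists was 85.4% ± 0.619 (SD, n = 3). Hosts were protein-coding for 426 members, where a protein-coding gene was taken first if genes overlapped. The nearest TSS belonged to a gene over the summit for 371. Neither count has a share of eligible sequence to set beside it. The summit was downstream of the nearest TSS in 278 members (63.8%), close to the 64.6% of eligible sequence, and 62.0% ± 1.37 (SD, n = 3) in the replicates' lists. Of the 158 upstream summits, 111 were upstream of a TSS of their own host and 47 upstream of a TSS of another gene. Downstream and upstream members had about the same median rank, 1770 and 1765.5, and about the same share found in all 3 replicates, 52.9% and 52.5%. The introns had a median length of 4955.5 bp, and the lower and upper quartiles were 2024.75 and 10411.8 bp. No member's peak interval covered a TSS, which follows largely from the 501 bp lower limit and the median interval width of 420 bp. Some exon sequence was covered by 58 intervals, a count not taken for all IDR peaks. No summit was in an annotated transposable element.

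About 1 in 4 members stood beside a promoter peak. An IDR promoter peak lay within 500 bp of the nearest TSS for 110 members (25.2%, exact 95% interval 21.2 to 29.6%), against 15.0% of all annotated TSS positions. The share was 23.7% for deep intronic and 13.6% (interval 8.37 to 20.4%) for TSS-near intergenic peaks. It was 30.2% (24.9 to 36.0%) for the 278 members downstream of that TSS and 16.5% (11.04 to 23.2%) for the 158 upstream. These are counts of peaks in 1 pooled list, and the intervals cover counting only. The share depends on how deep the lists go, with 15.7% among the 1748 IDR peaks of highest signal and 67.7% when all pooled relaxed peaks count as promoter peaks. The share of all TSS positions was not counted at these other depths. Whether members exceed it there is therefore not known. Members with a promoter peak had a median rank of 1610 and 62.7% were found in all 3 replicates, against 1859.5 and 49.4% for those without. The recovery differed by replicate, with 84.5%, 80.9% and 80.9% of the members with a promoter peak found in replicates 1, 2 and 3 and 80.7%, 82.2% and 69.6% of those without. Only in replicates 1 and 3 was the share higher with a promoter peak. The median distance to the TSS was 1164 bp with and 982 bp without.

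The summits sat in a local minimum of G+C content. The median over the 101 bp windows was 34.7%, with quartiles of 30.7 and 41.6%, against 40.6% in windows centred 500 bp to either side and a mean of 39.2% over eligible sequence. The windows to either side, called flanks, were not filtered by position. Some can therefore lie in exons or within 500 bp of a TSS. In 229 members (52.5%) the summit window had less G+C than both of its flanks. Over the replicates' own lists the median was 35.6% ± 0.990 at summits and 41.6% in flanks, the same flank value in all 3 lists (SD, n = 3, exact sign-flip p = 0.25). The minimum was narrow. Mean G+C in 25 bp windows was 35.1% at the summit, 36.7% at 50 bp to the left and 38.4% at 50 bp to the right, and 40.7% and 41.5% at 100 bp. Deep intronic summits were lower at 33.7%, and TSS-near intergenic and promoter summits higher at 37.5% and 38.5%. At promoters the minimum was broad, with 38.6% and 38.5% still at 100 bp. The members' median was below that of promoter peaks in the 3 replicates' lists, with differences of −4.46, −3.96 and −1.98 percentage points (exact sign-flip p = 0.25).

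**Figure D3:**
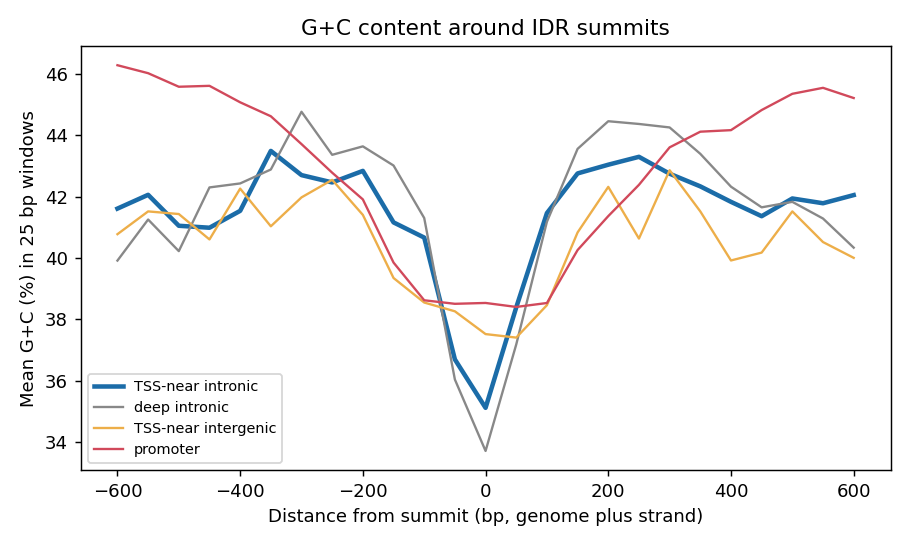
Mean G+C content (vertical axis, %, 25 bp windows) against distance from the summit (horizontal axis, bp) for IDR peaks of 4 classes, each line being 1 class. The TSS-near intronic line drops to 35.1% at the summit and is above 40% at 100 bp to either side, whereas the promoter line is flat near 38.5% across that span.

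The DREF/BEAF and M1BP consensus sequences, common at promoter peaks, were rare at the members, as at deep intronic and TSS-near intergenic peaks. The DREF/BEAF consensus TATCGATA, bound by the promoter and boundary proteins DREF and BEAF-32, was in 2 of 436 summit windows (0.459%, exact 95% interval 0.0556 to 1.65%), against 3.38% of all IDR peaks. It was in 114 promoter windows (5.29%), in 0.229% of the members' flanks and in 0.205% of all eligible windows of the same length. Deep intronic windows held it in 0.203% and TSS-near intergenic windows in 0.714%. The holders were Stt3A and Ncoa6, with ranks of 1076 and 3325. In the replicates' lists the share was 0.230%, 0.460% and 0.239% at members and 5.79%, 5.43% and 3.85% at promoters (exact sign-flip p = 0.25). The M1BP consensus GGTCACAC, of a protein of housekeeping promoters, was in 2 members (0.459%), Hgsnat and upSET. It was in 1.89% of IDR peaks, 2.88% of promoter windows and 0.134% of eligible windows. Deep intronic and TSS-near intergenic windows held the M1BP consensus in 0.203% and 0%. Another promoter word, GGTATTTT (Ohler motif 6), was in 7 members (1.61%), against 1.89% of IDR peaks, 2.46% of promoter windows, 0.459% of flanks and 0.658% of eligible windows. In the replicates' lists it was in 1.62% ± 0.590 of summits and 0.621% ± 0.0605 of flanks, higher at summits in 3 of 3 (SD, n = 3, exact sign-flip p = 0.25). Searches covered both strands, and a match is a description of the sequence, not a measured site.

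The NR2E half-site was in a smaller share of members than of their flanks, and a second receptor half-site had no common direction. The NR2E half-site AAGTCA was in 15 members (3.44%, exact 95% interval 1.94 to 5.61%), against 4.81% of IDR peaks. Flanks held it in 4.70% of windows, deep intronic windows in 4.46%, promoter windows in 5.11%, TSS-near intergenic windows in 7.14% and eligible windows in 5.75%. In the replicates' lists it was in 4.19% ± 0.251 of summit windows and 5.09% ± 0.272 of flanks, lower at summits in 3 of 3 lists (SD, n = 3, exact sign-flip p = 0.25). Of the 25 members of highest signal, only Zw held it. AGGTCA, a half-site that many receptors of the superfamily bind, was in 8 members (1.83%), against 1.83% of IDR peaks, 2.52% of flanks and 2.65% of eligible windows. The replicates' lists gave 2.76%, 2.76% and 1.19% at summits and 2.53%, 2.41% and 1.67% in flanks, higher at summits in 2 of 3 (exact sign-flip p = 1).

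Words of A and T were commoner at the summits than beside them. TTAAAA was in 114 members (26.1%, exact 95% interval 22.1 to 30.5%), against 26.5% of IDR peaks, 17.3% of flanks and 19.9% of eligible windows. The replicates' lists gave 26.04%, 27.4% and 25.5% at summits and 16.8%, 19.0% and 16.5% in flanks (exact sign-flip p = 0.25). TATAAA, the TATA box core, was in 75 members (17.2%), against 16.1% of IDR peaks, 12.96% of flanks and 14.5% of eligible windows. The Initiator core TCAGTT was in 27 members (6.19%), against 6.44% of IDR peaks, 9.40% of flanks and 6.64% of eligible windows. TTAAAA and TATAAA can overlap within a window, and the windows' low G+C content moves with both; its part in these shares was not tested. The forkhead consensus TGTTTAC was in 17 members (3.90%), against 3.78% of IDR peaks, 2.18% of flanks and 2.60% of eligible windows. It was in 6.69% of deep intronic and 2.14% of TSS-near intergenic windows. Of the 25 members of highest signal, 4 held it. These were CG9663, Trl, SCaMC and Prps. GAGAGAG, the word of the GAGA factor, was in 8 members (1.83%), against 1.69% of IDR peaks, 4.82% of flanks and 1.60% of eligible windows. In the replicates' lists forkhead was commoner at summits (5.12% ± 0.577) than in flanks (2.44% ± 0.376) in 3 of 3. GAGAGAG was in 2.10% ± 0.465 of summits and 5.13% ± 0.621 of flanks, lower at summits in 3 of 3 (SD, n = 3, exact sign-flip p = 0.25 for both). For GAGAGAG and the Initiator core the summits were close to eligible windows, and it was the flanks that were higher.

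**Figure D4:**
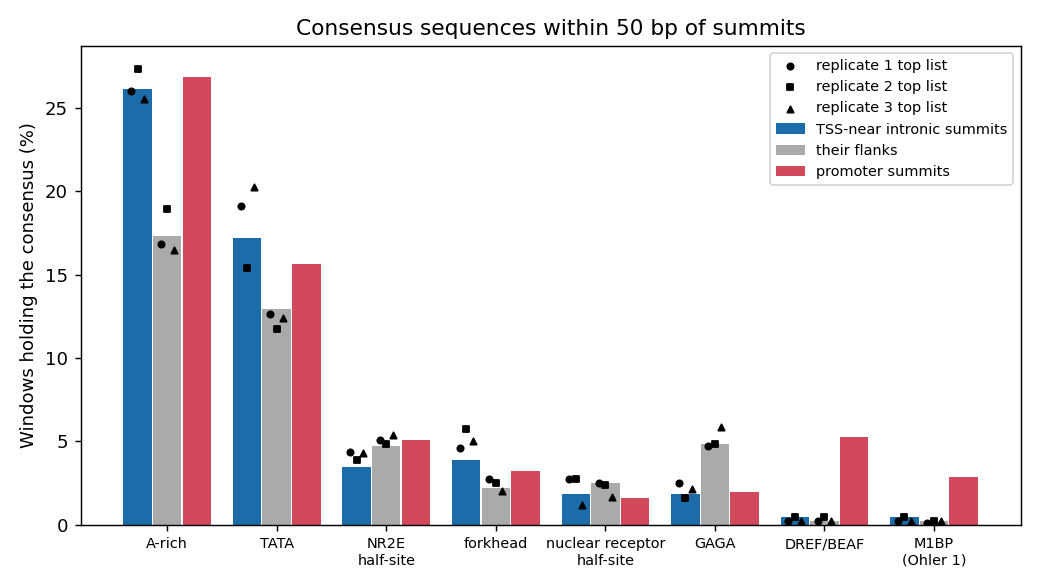
Share of 101 bp windows (vertical axis, %) that hold each of 8 consensus sequences (horizontal axis) at TSS-near intronic summits, in their flanks and at promoter summits of the IDR list. Points on the summit and flank bars are the 3 replicates' own lists. DREF/BEAF and M1BP bars are near 0 at members but reach 5.29% and 2.88% at promoters, and the A-rich word TTAAAA is at 26.1% of summits against 17.3% of flanks.

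Among all 2080 6-base words, each counted with its reverse complement, the largest differences between summits and flanks were for words of A and T and for ACAGTG. The first of these, TAAATA, was in 26.8% of summits against 16.2% of flanks and 18.2% of eligible windows. ACAGTG, which has 3 G or C letters, was in 55 members (12.6%, exact 95% interval 9.65 to 16.1%), against 9.53% of IDR peaks, 4.59% of flanks and 3.90% of eligible windows. The replicates' lists gave 13.6%, 13.1% and 12.2% at summits and 4.26%, 4.37% and 5.01% in flanks, with no overlap. The words were picked for these differences, so they were not tested. CACTGA, which shares its first 5 letters with the reverse complement of that word, was in 10.6% of summits, 4.01% of flanks and 4.13% of eligible windows. Words with CAA repeats were at the other end, with CAACAA in 9.63% of summits, 17.2% of flanks and 10.98% of eligible windows. For CAACAA, too, the summits were closer to eligible windows than the flanks were. Members with ACAGTG had a promoter peak at the nearest TSS in 23 of 55 (41.8%), against 22.8% of the other 381. Their G+C content was higher, with a median of 38.6% against 34.7%, and their median rank was 1917 against 1713. The word, with its 3 G or C letters, lies in the same window, so part of the G+C difference can follow from the split. Lk6 was the strongest member to hold it.

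The 436 members were spread over 360 host genes, each summit being given 1 host. Of these, 303 held 1 member, 46 held 2, 6 held 3 and 5 held 4 or more. CG1677 held 6, all upstream of the TSSs of other genes. They were nearest to CBP, brk, unc-119 (2 members) and CG42780 (2 members), and brk encodes a repressor of Dpp target genes. CHES-1-like, a forkhead transcription factor gene, held 5 members, with IDR ranks of 435, 513, 696, 2290 and 3323. The 3 strongest were found in every replicate, and the others in 1 each. HmgZ held 4, with ranks of 23, 1015, 1540 and 3015, and the member of rank 1015 was nearest to the paralogous gene HmgD. Also with 4 each were shn, a zinc-finger transcription factor gene of the Dpp pathway, whose strongest member ranked 726, and Tpr2, a co-chaperone gene, whose strongest ranked 997. Neighbouring members are not always separate sites, since 48 members had a peak interval that overlapped another IDR peak. The share of all IDR peaks with such an overlap was not counted. A second member in ush, ranked 2551, was another summit in the same peak interval as the rank 2 member. Its summit was 1571 bp from the cbt TSS, against 1370 bp, and it was found in no replicate list.

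Signalling genes were among the hosts. For each of 19 gene lists the hosts were counted among members of the list with eligible sequence, beside all protein-coding genes, of which 372 of 9005 (4.13%) held a TSS-near intronic peak. Genes differ in how much eligible sequence they have, with a median of 387 bp over all genes, so peaks per Mb are given too. That density was 38.4 per Mb over all protein-coding genes, where a summit inside overlapping genes counts for each. Of the EGF, FGF and MAP kinase signalling genes, 7 of 23 were hosts, with 90.3 members per Mb. The ligand gene ths had a member ranked 1228 and the receptor gene Egfr the member ranked 3484, near the end of the list. The adaptor gene drk, the kinase gene Raf, the feedback inhibitor gene sty and edl, whose product regulates ETS factors, had members ranked 600, 712, 1446 and 359. Those in edl, drk, Raf, ths and sty were found in all 3 replicates, and that in Egfr in 2. In edl the replicate ranks were 664, 606 and 161. Of the Wnt, Hedgehog and Dpp genes, 4 of 27 were hosts at 72.8 per Mb, namely Mad (the Dpp-pathway Smad, rank 484), shn, the ligand gene Wnt4 (rank 2361) and the type II receptor gene put (rank 3058). The Notch list had 1 host of 17, neur, a ubiquitin ligase gene, at rank 986, and 19.8 members per Mb. Growth and insulin genes had 3 of 31 at 66.9 per Mb. These were Lk6, the insulin receptor gene InR (rank 231, with replicate ranks of 275, 184 and 347) and the PI3-kinase gene Pi3K92E (rank 1566).

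Chromatin, cytoskeleton and neural lists followed. Of the Polycomb, trithorax and chromatin genes, 5 of 31 were hosts, with 237 members per Mb, the highest of the 19 lists. The strongest were in Trl (rank 31), ph-p (a Polycomb group gene, rank 1219), psq (a BTB-domain gene, rank 1904) and kis (a chromatin remodeller gene of the trithorax group, rank 1958). This value rests on 11 members in 0.0463 Mb, and 4 of them lay within Trl, some shared with the overlapping CG42507. Of the cytoskeleton and membrane traffic genes, 7 of 28 were hosts at 119 per Mb. The strongest were in Dhc64C (the dynein heavy chain, rank 320), Rab11 (a GTPase of recycling endosomes, rank 390), jar (myosin VI, rank 575) and tsr (cofilin, rank 797). The homeodomain and other neural fate list had 5 of 28 at 51.5 per Mb. Its strongest after ush were zfh1 (a zinc-finger and homeodomain factor, rank 267), brat (a translational repressor of neural stem cell progeny, rank 304) and elav (the neuronal RNA-binding protein, rank 453). The replicate ranks of the elav member were 410, 730 and 391, and it lay 609 bp downstream of the elav TSS.

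The mushroom body and learning list had 4 hosts of 25 (16% of its genes, beside 4.13% of all protein-coding genes) but 30.0 members per Mb, beside 38.4 per Mb over all. The hosts were Lk6, mub, Imp (an RNA-binding protein gene, rank 2459) and trio (rank 2662). Of the nuclear receptor genes, 2 of 18 were hosts at 44.0 per Mb, EcR (the ecdysone receptor, ranks 301 and 1935) and Hr4 (best rank 2042). The ecdysone response list had 3 of 20 at 45.5 per Mb, these and br (a BTB zinc-finger gene, rank 1379). The stronger EcR member lay nearest to the TSS of a tRNA gene. No member lay within 20 kb of Hr51 itself. The glial list had 3 hosts of 15 at 80.5 per Mb, Gs2 (glutamine synthetase, rank 745), nrv2 (a sodium pump subunit, rank 2325) and loco (an RGS protein, rank 2853). The axon guidance list had 2 of 39 at 11.5 per Mb (NetB, a netrin gene, rank 871, and trio). The synapse and ion channel list had 2 of 33 at 15.1 per Mb. These were Irk1, a potassium channel gene (rank 1289), and dlg1, a scaffold gene (rank 2612). The Irk1 summit also lay in the overlapping gene CG46310, its assigned host, which owns the nearest TSS.

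The remaining lists had 2 hosts or fewer. Of the circadian clock genes 2 of 20 (10%) were hosts at 30.8 per Mb, Sik3 (rank 2483) and ctrip (rank 3454). Of the mesoderm and muscle genes 2 of 25 (8%) were hosts at 41.03 per Mb, the myoblast fusion genes kirre (rank 1180) and mbc (rank 1531). The kirre summit also lay in the overlapping gene CG32795, its assigned host, which owns the nearest TSS. The epidermis and trachea list had 1 of 19 (5.26%) at 12.6 per Mb, the apical polarity gene crb (rank 1140). The Hox genes and cofactors had 1 of 12 (8.33%) at 24.4 per Mb, Abd-B (rank 2038). All 4 shares of genes are above 4.13%, whereas only the muscle list is above 38.4 per Mb. None of 21 segmentation genes and none of 21 housekeeping and ribosomal protein genes was a host. Those 2 lists hold only 0.0267 Mb and 0.00874 Mb of eligible sequence. The lists are small and overlap, and no list was tested.

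The X chromosome held a larger share of members than of the IDR list. It had 109 members (25%), against 17.2% of all IDR peaks and 19.3% of eligible sequence. The share of members on X was 23.0%, 26.2% and 22.0% in the replicates' own lists. Density on X was 49.5 per Mb, against values of 35.8 for 2L, 37.3 for 2R, 32.1 for 3L, 37.9 for 3R and 7.73 for chromosome 4, which had 1 member. X was denser than each of the 4 large autosomal arms in all 3 replicates. Its excess in replicates 1, 2 and 3 was 13.5, 19.4 and 7.47 per Mb over 2L, and 6.66, 13.02 and 9.65 per Mb over 2R. It was 9.44, 19.7 and 7.10 per Mb over 3L, and 6.73, 14.6 and 0.793 per Mb over 3R (exact sign-flip p = 0.25 for each arm).

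The distance limits divide a continuous range. Just inside the lower limit were summits in bchs and Lmpt, both at 501 bp, with signals of 162 and 160. Just outside it were DopEcR at 500 bp, with a signal of 95.1, and egr at 498 bp, with 180. Just inside the upper limit were RhoGAP18B at 1984 bp (signal 142) and a weaker NFAT peak at 1978 bp (100.3). Just outside were lncRNA:CR44320 at 2001 bp (265) and Klp98A at 2009 bp (81.7). Peaks on either side of both limits thus had signals in the same range.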

How the data were processed

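The 3 samples are labelled as biological replicates of 1 group, and nothing gives their depth, so intervals cover the counting of peaks only. The authors deposited peak lists in dm6 and dm3. Here 5 dm6 lists were used (IDR, pooled and 1 per replicate), and 5 dm3 lists were not used. The deposited signal is a value per peak from the authors' caller, and was used as a rank within a list. Per the README texts deposited, replicate lists came from each alignment and 1 further file. Which aligner and caller were run is not given in the sources used here.

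Annotation was Ensembl release 115 (FlyBase 6.54), and the sequence Release 6 of the genome from RefSeq. Transposable elements were left out. Each replicate's own list was its 3496 peaks of highest signal. Classes, 33 consensus sequences and 19 gene lists were counted with scipy 1.17.1, pandas 2.3.3 and numpy 2.4.6 under Python 3.11.15, with figures from matplotlib 3.10.9. Of 549 list symbols, 27 had no match. Functions were tested on simulated data. The test was an exact two-sided sign-flip permutation over the 3 replicates, and nothing was tested across peaks.

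Members and lists were chosen with earlier results of these data known. Genes named are the hosts and nearest TSS genes of the 25 members of highest signal, up to 4 of highest signal per list (6 hosts for the EGF, FGF and MAP kinase list), those nearest each limit, hosts of 4 or more members and holders of counted consensus sequences. Some values of 1 further host and 1 further window are not reported here.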

Additional observations from a re-analysis of the deposited data

How the results depend on the processing

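Over 7 results, 31 of 58 alternative values stayed within 1 replicate SD, the exact interval or, for the number of members, 1.5 times it, and 27 did not. Whether any of them turned a direction round was not assessed. No paired analysis between groups was possible because there was 1 group, and the sign-flip tests pair classes or windows within a replicate. Among the 1748 IDR peaks of highest signal there were 216 members, 87.0% found in all 3 replicates, with a median rank of 858.5 and 15.7% beside a promoter peak. The list of promoter peaks was cut at the same rank. Leaving out 1 replicate kept the IDR peaks found in both others, which also keeps stronger peaks. The number was then 259 to 308 members (259 without replicate 1 and 259 without replicate 2), the share found in both others 59.4 to 70.6%, the median rank 1032 to 1222, the DREF/BEAF share 0.325 to 0.386%, the share beside a promoter peak 18.5 to 18.9% and the share downstream 62.2 to 64.3%. With a lower limit of 300 bp the median rank was 1714, 18.2% had a promoter peak within that limit and 57.1% were downstream. The cause was not tested. The share found in all 3 was 42.7% within 75 bp and 94.0% among all relaxed peaks. Windows of 100 and 25 bp to either side gave DREF/BEAF shares of 0.688% and 0.229%, and the wider one a G+C content of 36.8%. The share beside a promoter peak was 19.0% within 300 bp of the TSS and 67.7% with all pooled relaxed peaks. No matching share of all TSS positions was counted for these alternatives. Limits to TSSs of protein-coding genes or to 3000 bp moved no result past these bounds. Depth is unknown, so undetected peaks are not shown to be absent.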
